A study of Oryza sativa with 20 samples.

Results

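In rice shoots recovering from a short heat shock, 150 of 37248 gene IDs stood below their controls at 20 min and above them at 1 h. They were picked on the deposited expression values. The ratio of heated to control, each raised by 1 FPKM, had to be at most 0.6 at 20 min and at least 2 at 1 h, and the 20 min control had to lie within 0.5 to 2 times the 10 min control. Where an ID stood on several rows of the table, the row with the highest mean was taken. The values at 20 min and 1 h and the 10 min controls therefore chose the genes and are given below as a description. The groups at 2 h and 10 h took no part in the ratios that chose the genes, and neither did the heated shoots at 10 min. All 10 groups did enter the mean that picked the row of each ID and that set the filter of 1 FPKM used below. Rows and genes that were high in any group, heated shoots at 2 h and 10 h included, were thus favoured.

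The shoots came from 2-week-old wild-type rice (Oryza sativa) raised in a greenhouse. Pots were turned over so that the shoots hung for 10 min in water at 22 °C (control) or at 42 °C (heated), and the plants then recovered in a chamber at 30 °C. Both arms were sampled straight out of the bath (10 min) and again at 20 min, 1 h, 2 h and 10 h, counted from the moment the shoots entered the water. All groups, controls included, were inverted and immersed, and the recovery temperature lay between those of both baths, so heating and the controls' own reaction to the cool bath and to rewarming cannot be told apart. Each of the 10 groups held 2 libraries, and 3 shoots were pooled for each library. Whole shoots mix many cell types, so fewer cells of a type and less RNA per cell cannot be told apart.

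Expression was deposited as FPKM, a fragment count divided by transcript length and library size, with 1 value per group. No spread between libraries stands behind any level here, and the depth of the libraries is unknown. A call means that the authors' deposited table gives a q-value below 0.05 for heated against control at that time. Sizes are log2 ratios of FPKM + 1, which understate the changes of low genes. Calls were counted over the 22704 IDs with a mean of at least 1 FPKM, which 141 of the 150 genes passed; the 9 others stay in the description. The sum of FPKM over distinct rows was lowest in controls at 2 h (661048) and highest in heated shoots at 1 h (1175511), and whether these unequal sums touch the ratios was not tested beyond the rescaling reported at the close.

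As background, a heat shock makes plant cells rebuild their transcriptome within minutes. Heat stress transcription factors switch on chaperone genes, while many ordinary transcripts are transcribed less, held back from translation or degraded. During recovery protein folding is restored, translation resumes and transcripts that had been lost can be made again. The deposited table does not pair its IDs with gene names and no annotation of these IDs was at hand, so no function is given for any of them, and single IDs are named sparingly.

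The pair of ratio conditions alone was met by 320 IDs, and the condition on the controls removed 170 of them, whose 20 min and 10 min controls differed by more than 2-fold on the FPKM + 1 scale. The genes kept were of ordinary abundance. Their mean over the 10 groups had a median of 8.44 FPKM, with quartiles at 4.13 and 23.2 FPKM and a range from 0.468 to 473.759 FPKM. Adjacent IDs in 3 pairs carried the same values in every group, so the 150 IDs hold 147 distinct sets of values, and reads of the paired genes cannot be told apart. At least 1 group was listed at 0 for 9 of the IDs, 4 of them with a mean of at least 1 FPKM.

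Many genes lay close to the limits of the rule. The ratio at 20 min was above 0.55 in 42 genes, the ratio at 1 h was below 2.2 in 28, and 61 genes met at least one of these. The members nearest to the 20 min limit had ratios of 0.5976, 0.5963 and 0.5958, and the nearest genes left out had 0.6025, 0.6083 and 0.61. At 1 h the members nearest to the limit had ratios of 2.0, 2.02 and 2.03, and the nearest genes left out had 1.99, 1.98 and 1.97. The set is thus a range of a continuous pattern, with no gap at its edge.

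Over the 5 times in order, the median control level was 6.39, 8.04, 5.39, 5.34 and 5.56 FPKM. The median heated level was 3.83, 3.18, 21.6, 13.3 and 5.58 FPKM. Heated shoots were therefore below the controls at 10 and 20 min, above them at 1 and 2 h, and level with them at 10 h. Together the 147 distinct sets of values made up 0.417% of all FPKM in the 20 min controls and 0.147% in the heated shoots at that time. At 1 h the shares were 0.263% in controls and 0.721% in heated shoots.

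**Figure D1:**
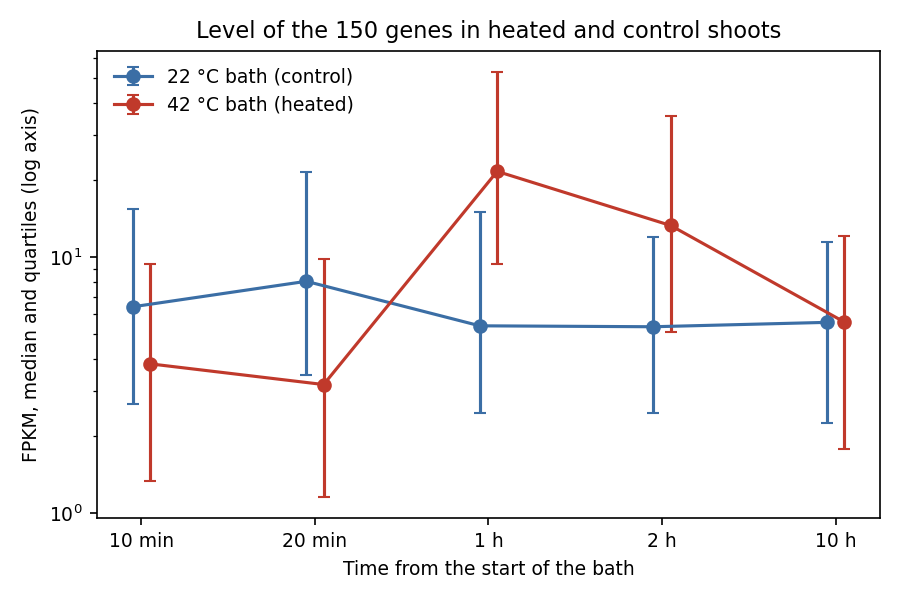
Median FPKM of the 150 genes (points) with quartiles over genes (bars) on a log axis, by time from the start of the bath, in control and heated shoots. The heated median is 3.18 FPKM against 8.04 FPKM at 20 min, 21.6 FPKM against 5.39 FPKM at 1 h, and 5.58 FPKM against 5.56 FPKM at 10 h; the columns at 20 min and 1 h and the 10 min control chose the genes.

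The low ratio at 20 min was made up of a low heated level and a raised control level. From 10 to 20 min the controls were higher in 126 of the 150 genes, with a median log2 difference of 0.43, against a median of -0.02 over all tested genes. The heated shoots were lower at 20 min than at 10 min in 96 genes and higher in 53, with a median difference of -0.17. The fall at 20 min is therefore one relative to the controls, and in 53 genes it went with a heated level above that at 10 min. Set against the 10 min controls, the heated shoots at 20 min were lower in 144 genes, with a median log2 difference of -0.65, and by at least 2-fold in 35. The heated 20 min value was below all 5 control groups in 80 genes. A choice made on the 20 min ratio favours high control values and low heated values at that time. With the condition on the controls it also bounds the 20 min heated value against the 10 min control. The count of 144 is therefore largely set by the rule.

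The overshoot was made up mainly of the heated level. From 20 min to 1 h the heated shoots were higher in 146 genes, by at least 2-fold in 131, with a median log2 difference of 2.19 against 0.00 over all tested genes. Over the same interval the controls had a median difference of -0.50 and were at least 2-fold lower in 44 genes. The limits at 20 min and 1 h force the ratio up between these times in every member. A rise of the heated level was thus favoured by the choice, and these values only describe how the change divides. At 1 h the heated value was above all 5 control groups in 124 genes, and in the 26 others at least 1 control group was as high or higher. The 1 h heated group was the highest of the 10 groups in 101 genes, the 2 h heated group in 19, and the 20 min control in 18. Median levels in the 24 tested genes of those 26 were 9.89 FPKM in heated shoots and 3.65 FPKM in controls at 1 h, below the 14.2 FPKM of the 20 min controls.

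Of the contrasts that chose the genes, the authors' deposited table called 74 of the 141 tested genes lower and 0 higher at 20 min, where 6.25% of all tested genes were called lower and 3.42% higher. At 1 h the same table of the authors called 111 higher and 0 lower, where 12.0% of all tested genes were called higher and 8.74% lower. Nothing is read from these counts, since the ratios behind them were the condition. They do show that the ratio is not backed by a call in every gene: over all 150 genes 71 were called at both times and 32 at neither, in the authors' deposited table. These 150 include the 9 IDs below the filter, and the same shares over all tested genes were not computed.

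The most abundant gene was OS04G0244800. Its control levels over the 5 times were 212.14, 217.25, 464.26, 169.13 and 169.07 FPKM. Its heated levels in the same order were 174.73, 117.90, 1663.51, 1417.55 and 132.05 FPKM. The heated value was the higher one at 1 h and 2 h only, and the excess over the control was larger at 2 h, with a log2 ratio of 3.06 against 1.84 at 1 h. The 2 h difference was called in the authors' deposited table (q printed as 0.0), and the 10 h difference was not (q = 0.48).

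The gene with the lowest ratio at 20 min, OS01G0384800, had a steep course in the controls themselves. Its control levels were 116.41, 226.64, 11.64, 6.78 and 6.73 FPKM over the 5 times, and its heated levels were 19.31, 31.31, 58.46, 20.58 and 11.36 FPKM. Its heated value at 1 h lay below the 10 and 20 min controls, and its excess at 1 h was over a control of 11.64 FPKM. OS03G0159900, next in order, went in the controls through 95.78, 128.59, 105.46, 69.03 and 29.46 FPKM and in the heated shoots through 23.01, 20.46, 224.80, 195.31 and 46.00 FPKM. Here the heated values at 1 h and 2 h were above every control group.

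The largest ratio at 1 h belonged to OS02G0629000, which was low in the controls. It had controls of 0.35, 1.57, 0.28, 0.19 and 0.24 FPKM and heated values of 0.26, 0.21, 46.47, 19.04 and 1.12 FPKM. Its 20 min (q = 0.13) and 2 h (q = 0.06) differences were not called in the authors' deposited table. Its low 20 min ratio lay mainly in the raised control, which met the condition on the controls only because 1 FPKM was added. OS06G0166400, next in order at 1 h, had controls of 5.64, 6.15, 5.30, 4.57 and 8.33 FPKM and heated values of 3.91, 1.76, 217.93, 128.56 and 11.44 FPKM. Its controls were steady, and the heated level alone carried the swing from the lowest to the highest of its 10 values.

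**Figure D2:**
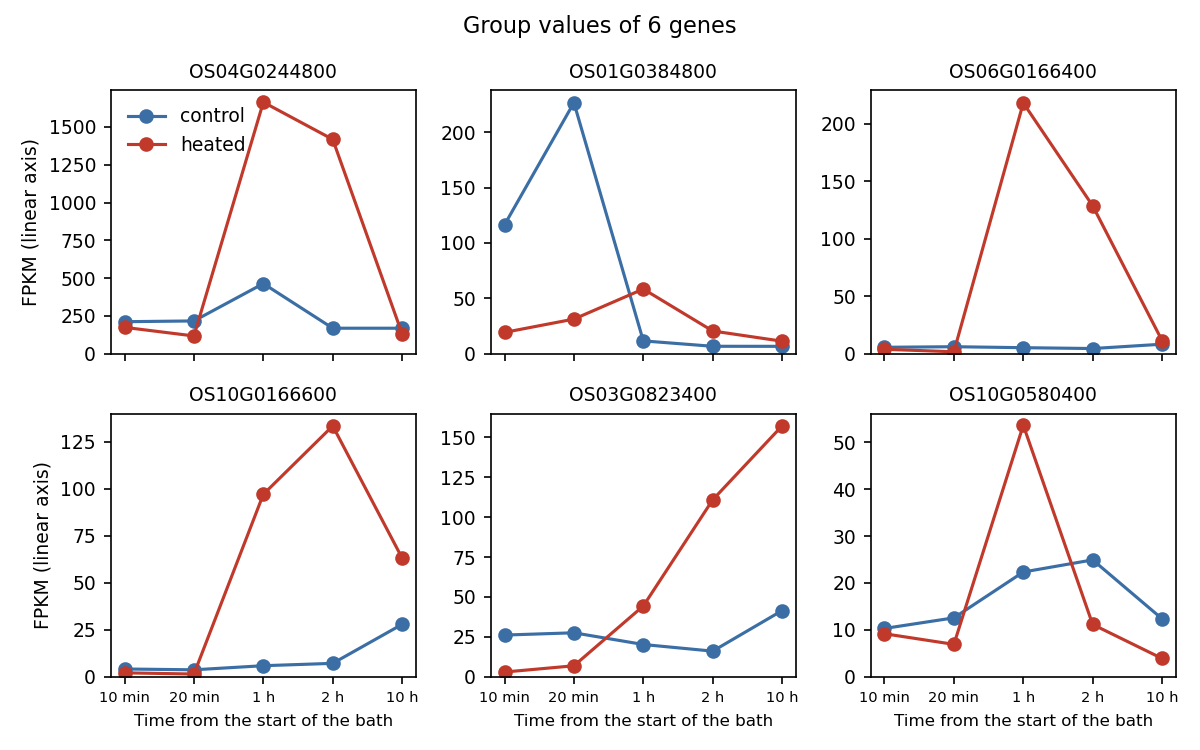
FPKM of 6 genes in control and heated shoots at the 5 times on linear axes from 0, 1 value per group, with no error available. OS04G0244800, OS06G0166400 and OS10G0166600 have high heated values at 1 h and 2 h, OS01G0384800 has its highest value in the 20 min control, OS03G0823400 has its highest in heated shoots at 10 h, and OS10G0580400 has lower heated than control values at 2 h and 10 h.

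The first comparison outside the 20 min and 1 h contrasts asked where these genes stood when the bath ended. Of the 141 tested genes the authors' deposited table called 24 lower (17.0%) and 0 higher at 10 min, against 2.28% lower and 1.55% higher over all tested genes. The median log2 ratio of the tested members was -0.45, against -0.03 over all tested genes, and the ratio was below 0 in 118 of them. The 10 min controls entered the rule through the condition on the controls, so these values are only partly free of the choice. The lowest called ratios were those of OS03G0823400, at 3.0 FPKM against 26.15 FPKM in the controls (log2 ratio -2.76), and of OS01G0384800, at 19.31 FPKM against 116.41 FPKM (log2 ratio -2.53). For each, the authors' deposited table prints a q of 0.0.

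By their 10 min ratio the tested genes split into 47 that already met the limit of 0.6, 93 between that and its inverse, and 1 above the inverse. The median log2 ratios of the 47 were, in time order, -1.15, -1.41, 1.69, 1.38 and 0.15. Those of the 93 were -0.26, -0.95, 1.48, 1.13 and -0.10. The calls at 2 h in the authors' deposited table included 29 of the 47 and 49 of the 93 as higher, where 11.8% of all tested genes were. Across the 141 genes the ratios at 10 min and 2 h had a Pearson's r of -0.16, against 0.43 over all 22704 tested genes. Each set of ratios comes from libraries of its own, and genes are not replicates. The rule limited the 20 min ratio and the 10 min controls, which narrows the range of early ratios among the members, so these correlations are a description only.

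**Figure D3:**
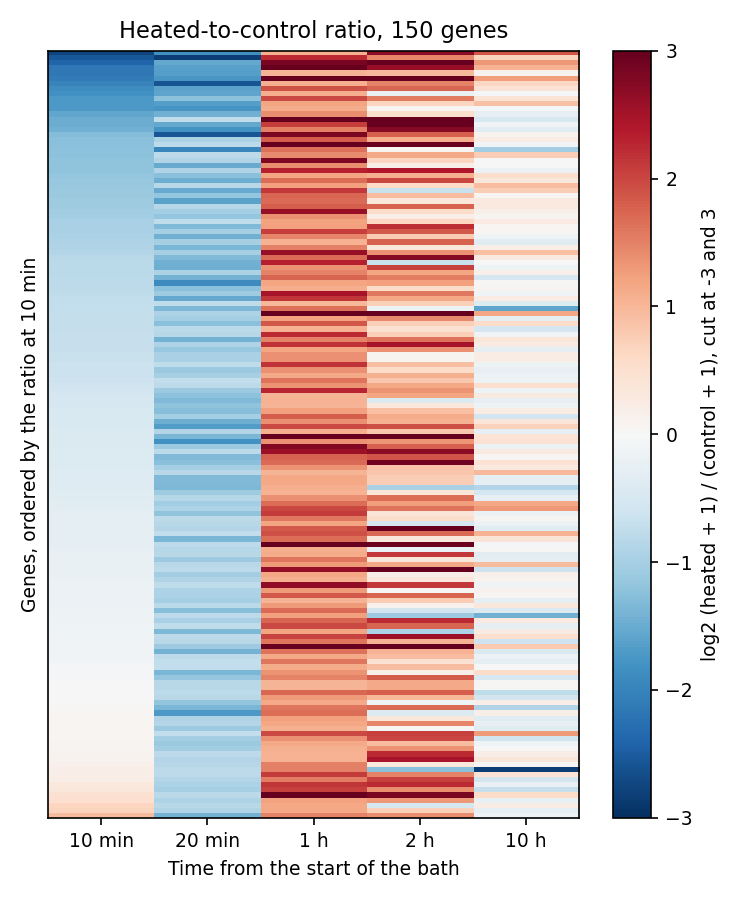
Log2 ratio of heated to control (FPKM + 1) for the 150 genes (rows, ordered by the 10 min ratio) at the 5 times (columns), with colours cut at -3 and 3. The 20 min column is below 0 and the 1 h column above 0 in every row because the genes were chosen so; the 2 h column is mostly above 0 and the 10 h column is mixed.

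At 2 h, with both groups outside the ratios of the rule but within the mean used for rows and filter, the excess was still there in most genes. The authors' deposited table called 79 of the 141 tested genes higher (56.0%) and 1 lower, against 11.8% higher and 6.98% lower over all tested genes. The median log2 ratio was 1.17 with quartiles of 0.61 and 1.84, against a median of -0.01 over all tested genes. In all, 131 of the 141 had a ratio above 0 and 84 were at least 2-fold higher on the FPKM + 1 scale.

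The ratio was smaller at 2 h than at 1 h in 100 genes and larger in 41, with a median difference of -0.42. A drop of at least 1 on the log2 scale was seen in 34 genes and a further increase of at least 1 in 9. Choosing genes by a high ratio at 1 h favours a lower ratio at the next time. Across the tested members the ratios at 1 h and 2 h had a Pearson's r of 0.63, against 0.76 over all tested genes, and this is a description, since the 1 h ratio was limited by the rule.

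**Figure D4:**
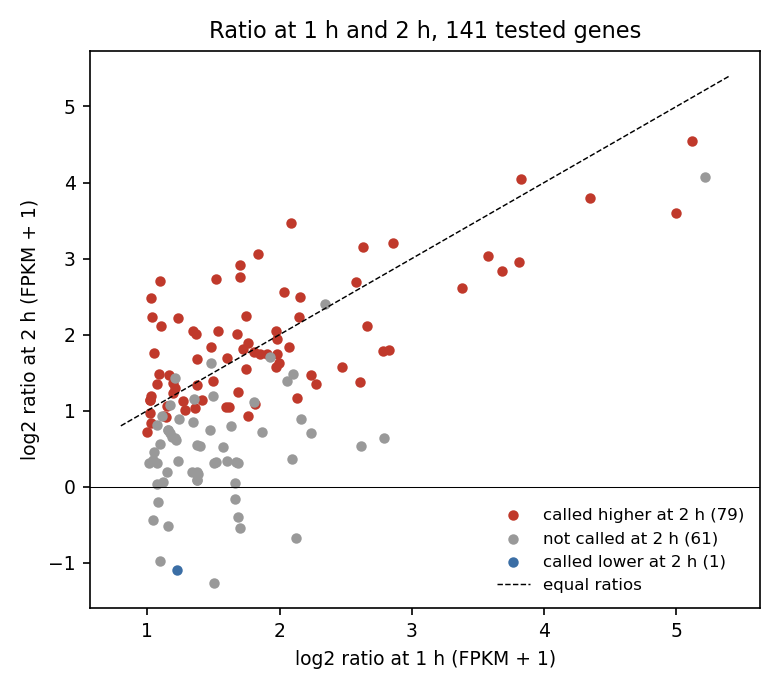
Log2 ratio of heated to control (FPKM + 1) at 1 h (x axis) and 2 h (y axis) for the 141 tested genes, coloured by the 2 h call in the authors' deposited table; the dashed line marks equal ratios. Of the points, 100 lie below the dashed line and 41 above it, and 10 lie below 0 at 2 h.

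Among the genes called higher at 2 h, the largest ratios belonged to OS06G0166400 (log2 ratio 4.54, described above) and OS10G0166600. The latter had controls of 4.17, 3.74, 5.92, 7.17 and 27.94 FPKM and heated values of 2.13, 1.48, 97.12, 133.48 and 63.18 FPKM. It was thus higher at 2 h than at 1 h in the heated shoots, and its 10 h difference was also called in the authors' deposited table (q printed as 0.0). The only gene called lower at 2 h was OS10G0580400, at 11.16 FPKM in heated shoots and 24.92 FPKM in controls (q of 0.0 as printed in the authors' deposited table). It had stood at 53.62 against 22.34 FPKM at 1 h, so its overshoot had turned to a deficit within the next sampling interval.

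In the 61 tested genes without a call at 2 h the median control level was 6.44 FPKM at 10 min and 8.0 FPKM at 20 min, against 7.87 and 8.78 FPKM in the 79 called higher. At 1 h and 2 h it was 3.5 and 4.92 FPKM in the 61, against 9.06 and 6.78 FPKM in the 79. The mean over the 10 groups had a median of 6.50 FPKM in the 61 and 14.0 FPKM in the 79. That mean includes the heated 2 h values behind the calls, so the split itself favours a gap, and no difference in abundance is read from it. The median log2 ratio of the 61 was 1.38 at 1 h and 0.53 at 2 h, against 1.70 and 1.76 in the 79. At 10 min the authors' deposited table has 4 of the 61 and 20 of the 79 as lower, where 2.28% of all tested genes were. Where the control had been at least 2-fold lower at 1 h than at 20 min, in 41 tested genes, the 2 h median was 0.71, and the authors' deposited table has 14 as higher. Among the 24 tested genes whose 1 h heated value was not above every control group, the 2 h median was 0.46, and the authors' deposited table has 7 as higher. Of all tested genes it has 11.8% as higher at 2 h. These subgroups were formed from the same group values and were not tested against each other.

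At 10 h most of the genes lay near the control level. The median log2 ratio was 0.03 in the 141 and 0.03 over all tested genes. Within 0.5 of 0 lay 100 of the 141 (70.9%), against 78.4% of all tested genes. The authors' deposited table called 13 higher (9.22%) and 2 lower (1.42%), against 2.85% higher and 1.79% lower over all tested genes. Of the 13 called higher, 10 had also been called higher at 2 h in the authors' deposited table. In those 10 the median log2 ratio was 2.33 at 2 h and 1.21 at 10 h. The overlap of both calls over all tested genes was not computed, so nothing is read from this count.

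OS03G0823400 held the largest called ratio at 10 h. Its control levels were 26.15, 27.57, 20.24, 16.08 and 41.47 FPKM, and its heated levels were 3.0, 6.92, 44.36, 110.82 and 157.12 FPKM. Its heated values therefore stood higher at each later sampling, and its 1 h excess (log2 ratio 1.09) was close to the lower limit of the rule and smaller than those at 2 h (2.71) and 10 h (1.90). OS04G0583200 had the next largest called rise at 10 h. Its controls were 5.28, 3.40, 2.35, 0.78 and 9.68 FPKM and its heated values were 0.18, 0.53, 23.29, 15.34 and 25.36 FPKM. The heated level was near 0 at 10 and 20 min and above the control at each of the 3 later times.

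The 2 called falls at 10 h were in OS01G0508100 and OS10G0580400. OS01G0508100 stood at 2.12 FPKM in heated shoots and 8.36 FPKM in controls at 10 h (log2 ratio -1.58, q = 0.02 in the authors' deposited table). It had been at 23.21 against 6.65 FPKM at 1 h and at 7.86 against 8.92 FPKM at 2 h. OS10G0580400 stood at 3.91 against 12.36 FPKM at 10 h (log2 ratio -1.44, q of 0.0 as printed in the authors' deposited table), after its fall at 2 h. In these genes the course crossed the control level more than once.

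The controls of the genes were not constant over the day. From 10 min to 10 h the control level was lower in 98 of the 150 genes and higher in 52, with a median log2 difference of -0.27, against 0.05 over all tested genes. It was at least 2-fold lower in 29 and at least 2-fold higher in 8. The 20 min control was the highest of the 5 control groups in 82 genes. OS05G0497300, the second most abundant gene, had controls of 130.19, 211.43, 71.74, 48.25 and 27.39 FPKM and heated values of 77.05, 72.88, 318.52, 109.88 and 32.83 FPKM. Its controls were lower at each time after 20 min, while its heated level peaked at 1 h.

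The genes were set beside those that share only one of their conditions, all under the same condition on the controls and with a mean of at least 1 FPKM. Genes at least 2-fold higher at 1 h but with a 20 min ratio between 0.6 and its inverse numbered 1644. Genes at or above that inverse at 20 min and at least 2-fold higher at 1 h numbered 682. Genes that met the 20 min limit without the rise at 1 h numbered 1904. At 2 h the authors' deposited table called 55.2% of the 1644 and 54.7% of the 682 higher, close to the 56.0% of the genes described here, and 7.20% of the 1904. The median log2 ratio at 2 h was 1.15 in the 1644, 1.63 in the 682 and -0.25 in the 1904, against 1.17 in the 141.

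The authors' deposited table called 13.9% of the 1904 lower at 10 min, close to the 17.0% of the 141, and 0.791% of the 1644. The median log2 ratio at 10 min was -0.43 in the 1904 and -0.45 in the 141. The 10 h calls in the authors' deposited table took in 2.86% of the 1644, 3.52% of the 682 and 2.05% of the 1904 as higher, against 9.22% of the 141. The 164 tested genes with the same ratios but a control difference of more than 2-fold had 4.88% called higher at 10 h and 53.7% at 2 h in the authors' deposited table. Of the 164, the authors' deposited table has 8.54% as lower and 5.49% as higher at 10 min, against 17.0% lower and 0 higher in the 141. The median log2 ratio of the 164 was then 0.04, with 87 above 0, against -0.45 in the 141. By these shares the genes lay close to the 1904 at 10 min and to the 1644 and the 682 at 2 h. None of these differences was tested, since the genes are not replicates and the groups have 1 value each.

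**Figure D5:**
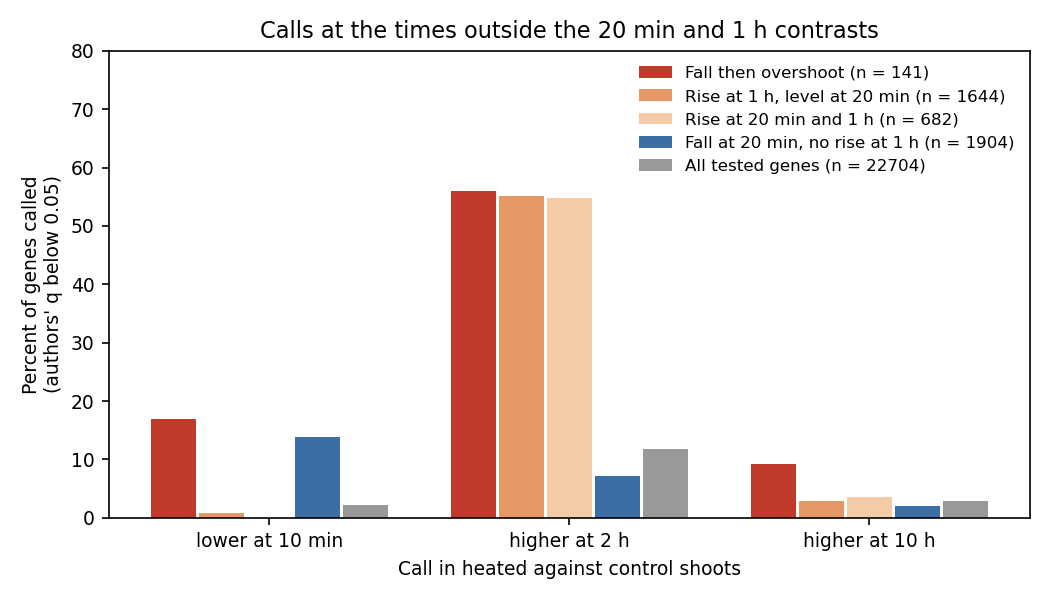
Percent of tested genes called by the authors' q-value, lower at 10 min, higher at 2 h and higher at 10 h in heated against control shoots, for the 141 genes, the 3 sets that share one of their conditions, and all 22704 tested genes. The share at 10 min is 17.0% and 13.9% in both sets chosen by a fall at 20 min, and the share at 2 h is 54.7% to 56.0% in the 3 sets chosen by a rise at 1 h; the share at 10 h is 9.22% in the 141 and at most 3.52% in the others.

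The genes did not share a single profile. Over the 10 groups, the log2 levels of the 103 genes with a mean of at least 5 FPKM had Pearson's correlations of -0.13 to 0.97 with the median profile of all members, with a median of 0.81. In 20 genes the correlation was at least 0.9 and in 17 it was below 0.5. Of the 14992 other genes at this level, 63 reached 0.9 and the highest was at 0.97, so the profile was not limited to the genes that met the rule. The 10 points of each correlation share the groups and the median was taken over the genes themselves.

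By the chromosome number written into the IDs, 27 genes lay on chromosome 1 and 28 on chromosome 3, or 18.0% and 18.7% of the 150. These chromosomes hold 14.4% and 13.4% of the tested IDs. The bases are unlike, since the 150 include the 9 IDs with a mean below 1 FPKM, several of them on chromosome 1. No excess on a chromosome is read from these shares. The fewest, 4, carried the number of chromosome 11. In ID order 9 pairs of consecutive members were at most 3 steps apart, and 3 of these pairs are the ones with identical values. Runs of 3 members were found on chromosomes 1 and 3, and the one on chromosome 3 includes a pair with identical values. The other run was OS01G0207400, OS01G0207500 and OS01G0207600, named here after their values were seen. OS01G0207400 had controls of 41.37, 40.01, 42.62, 39.06 and 50.95 FPKM and heated values of 20.69, 19.58, 181.87, 141.76 and 53.04 FPKM. OS01G0207600 had controls of 7.71, 7.73, 9.93, 9.32 and 12.08 FPKM and heated values of 3.17, 3.86, 37.27, 34.14 and 15.07 FPKM. The courses ran side by side at unlike levels, with steady controls, a heated level near or below 0.5 times the control at 10 and 20 min, and a heated level back near the control at 10 h. OS01G0207500, between them in the ID order, was at most 1.92 FPKM in the controls and at 7.95 FPKM in heated shoots at 2 h. Whether reads were shared between these neighbours was not tested, and the sources used here do not say whether counting used strand.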

How the data were processed

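RNA from rice shoots, 20 libraries in 10 groups of 2, was sequenced on an Illumina instrument (labels' protocols). Cutadapt, TopHat2, Cufflinks and the build IRGSP-1.0 stand in the submitters' processing notes; no source used here gives their versions. The authors deposited 1 FPKM value per group and a q-value per time with 2 decimals, per the file headers; the test behind it is unstated. A q of 0.0 rounds to 0.

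For each of 37248 IDs on 48683 rows the row of highest mean was taken; ratios used a pseudocount of 1. The reference table (assembly ASM3414082v1) held 0 of these IDs, so lists by annotation and promoter motifs were not formed. Members and lists were chosen with earlier results of these data known. Named IDs have the highest mean, the highest ratio at 1 h, the lowest at 20 min or the largest called ratios at 10 min, 2 h or 10 h, at most 2 per direction; the 10 min part and the neighbours were added after values were seen. Without values per library no p-value was computed. Scripts (Python 3.11.15, pandas 2.3.3, numpy 2.4.6) were tested on simulated data.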

Additional observations from a re-analysis of the deposited data

Results flagged for a closer look

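Rows other than the highest one of each ID took no part in the choice of genes. Of the 150 IDs, 40 had such rows, 52 in all, and 16 of these rows, under 15 IDs, had a mean of at least 1 FPKM. At 1 h the median log2 ratio of the 16 rows was 1.38, against 0.10 over 3398 such rows of all genes. Of the 16 rows, 14 had a ratio above 0. The mean that kept the 16 rows includes the heated 1 h value, so rows high in that group were favoured. Over all 52 rows the 1 h median was 0.72, against 0.15 over the 11313 other rows of all genes. The authors' deposited table called 3 of the 16 higher at 1 h, and 108 of the 3398. At 20 min the median log2 ratio was -0.02, with 9 of 16 below 0, and the authors' deposited table called 2 of the 16 lower, and 38 of the 3398. Over all 52 rows the 20 min median was 0.14. The authors' deposited table called 5 of the 52 higher and 2 lower then, against 503 higher and 46 lower of the 11313. At 10 min the median log2 ratio of the 16 was -0.53, with 14 of 16 below 0, against 0.14 over the 3398. None of these falls was backed by a call: the authors' deposited table called 0 of the 16 higher and 0 lower at 10 min. Of the 3398 it called 28 higher and 14 lower. Whether reads were divided between rows of an ID was not tested.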

How the results depend on the processing

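The alternatives gave 59 values, and 48 stayed within 1.5 times a count or 0.25 of a median log2 ratio. Part of this was fixed in advance. Without the filter the rule finds the same 150 genes, and the calls rest on the same deposited q-values in every setting. With a pseudocount of 0.1 the rule found 366 genes, 122 of them among the 150. With limits of 0.5 and 3 it found 39, of which 38 were tested. Of these 38, the authors' deposited table called 11 at 10 min, all lower, and 24 at 2 h, all higher. It called 6 at 10 h, 5 higher and 1 lower. Of all tested genes it called 2.28% lower at 10 min and 11.8% higher at 2 h. At 10 h it called 2.85% of them higher and 1.79% lower. The median log2 ratios of the 38 were -0.74 at 10 min and 1.43 at 2 h. Requiring calls at 20 min and 1 h left 71 genes. Of the 70 tested among them, the authors' deposited table called 47 higher and 1 lower at 2 h, against 11.8% and 6.98% of all tested genes. A q below 0.01 left 13 calls at 10 min and 7 at 10 h among the 141. The shares of all tested genes at that threshold were not computed, so nothing is read from these calls. Fewer genes or a stricter threshold lower these counts by construction. Rescaling each group by its median ratio gave 159 genes, 147 of them shared, and rows summed per ID gave 138. Counting IDs with identical values once, chosen after seeing the data, gave 147. The median at 10 h was -0.01 with a pseudocount of 0.1 or summed rows. Leaving out single libraries was not run, as 1 value stands for both. No paired analysis was possible because the columns carry no replicate. Depth is unknown, so low genes have no floor.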
